A study of Mus musculus with 27 samples.

Results

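The comparison described here is an interaction of cell line and day in mouse embryonic stem cells that were left to form embryoid bodies: the change from day 0 to day 3 in a line labelled Sam68 KO, minus the same change in Wild Type. It uses 12 of the 27 libraries of the series, chosen by their line and day labels: 3 each of Wild Type day 0, Wild Type day 3, Sam68 KO day 0 and Sam68 KO day 3. All 4 groups are E14 cells, a male mouse embryonic stem cell line, and carry no other stated change. Wild Type is the unedited reference, Sam68 KO is a knockout line of the same background for Sam68 (gene Khdrbs1), day 0 is the undifferentiated culture and day 3 is the culture 3 days into embryoid body formation. Another line, a Quaking KO of the same background, is used below only to show where the Sam68-labelled line differed from it. The labels name no separate clones, so each knockout is 1 line, and an effect of the knockout cannot be told apart from an effect of that line.

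Embryoid bodies are floating aggregates in which stem cells leave naive pluripotency, pass through a formative and then a primed epiblast state, and begin to form the primitive streak, the source of mesoderm and definitive endoderm. Wnt, Nodal and BMP signals drive streak formation, and epiblast cells that receive little of them tend towards anterior neural fate. Sam68 is an RNA-binding protein of the STAR family, whose members bind single-stranded RNA through a KH domain and act in splicing and other steps of RNA processing.

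Khdrbs1 (chr4:129703164-129742303 on GRCm38) was read first because it checks the label. Its level was 97.1, 97.7 and 94.8 CPM at day 0 and 152, 164 and 160.2 CPM at day 3 in Wild Type, against 98.5, 92.3 and 89.7 CPM and 91.9, 95.1 and 106 CPM in the Sam68-labelled line, where CPM is the count scaled to a common library size. The lines overlapped at day 0, and at day 3 all 3 Sam68-labelled libraries lay below all 3 Wild Type libraries. The difference between lines was -0.05 ± 0.05 on the log2 scale (± SE) at day 0, which did not pass the test (adjusted p = 0.39), and -0.70 ± 0.05 at day 3. The transcript was therefore not lost. A count over a whole gene cannot show a small deletion or a frameshift, so the libraries are called Sam68-labelled throughout. The Sam68 effect on Khdrbs1, defined as Sam68-labelled minus Wild Type, changed by -0.65 ± 0.07 between the days (adjusted p = 2.0e-07); Wild Type rose, and the Sam68-labelled line did not pass the test between its own days. Of the other STAR genes, Khdrbs3 changed by 0.28 ± 0.06 and the low-level Khdrbs2 by 1.74 ± 0.44. Qk (Quaking) changed by -0.18 ± 0.05 and Sf1, the branch point binding protein, by -0.14 ± 0.05. Both of these calls were lost with all 27 libraries in the fit (-0.14 and -0.10) and when single libraries were left out: Qk without Sam68 KO day 0 replicate 3 (-0.15), and Sf1 without Wild Type day 0 replicate 2 (-0.14), replicate 2 of Sam68 KO day 0 (-0.12), or replicate 3 of the same line at day 3 (-0.13).

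Total counts per library ran from 66987594 to 67919455 in Wild Type day 0, 66509148 to 69184884 in Wild Type day 3, 56461674 to 62138006 in Sam68-labelled day 0 and 59416021 to 63375667 in Sam68-labelled day 3. The library numbers in the labels run in one range for the Sam68-labelled libraries and in another for the other lines, so a batch and the line cannot be told apart at a single day. A batch difference of equal size at both days cancels in the interaction. Small structured RNAs took 1.84 to 2.21% of counts in the 6 Wild Type libraries and 0.572 to 0.775% in the 6 Sam68-labelled libraries. The mitochondrial 16S ribosomal RNA mt-Rnr2 took 11.4 to 13.7% of counts in Wild Type day 0 and 12.5 to 13.3% in Sam68-labelled day 0. At day 3 it took 5.82 to 9.53% in Wild Type, with replicate 1 the highest, and 10.6 to 11.1% in the Sam68-labelled line. These ranges overlapped at day 0 and not at day 3, so this difference does not cancel in the interaction. With mitochondrial, ribosomal and structured RNA genes left out of the fit, 7120 genes were called in the interaction, 3757 higher and 3363 lower, against 7111 with them, and the 117 single genes followed through the alternatives kept their direction and their side of the threshold. The labels call the 3 libraries of a group biological replicates and say no more of their cultures. The tests therefore rest on how far these 3 libraries lie apart, part of which may be technical.

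Of 21008 genes tested, 7111 (33.8%) changed in their Sam68 effect between day 0 and day 3 at an adjusted p under 0.05 in edgeR's quasi-likelihood test. The change was positive for 3779 genes (18% of those tested) and negative for 3332 (15.9%), and it reached 2-fold for 941 and 637 of them. The median change was 0.02 (log2). By day, 1800 of the 7111 genes differed between the lines at day 3 only, 1465 at day 0 only and 44 on neither day alone. A further 1642 differed in the same direction on both days and more at day 3, 1010 differed in the same direction and less at day 3, and 1150 differed in opposite directions. Below, "higher" and "lower" refer to this change of the Sam68 effect: a gene called lower rose less, or fell more, from day 0 to day 3 in the Sam68-labelled line than in Wild Type. A list is read against the 18% and 15.9% of all genes called in each direction.

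**Figure D1:**
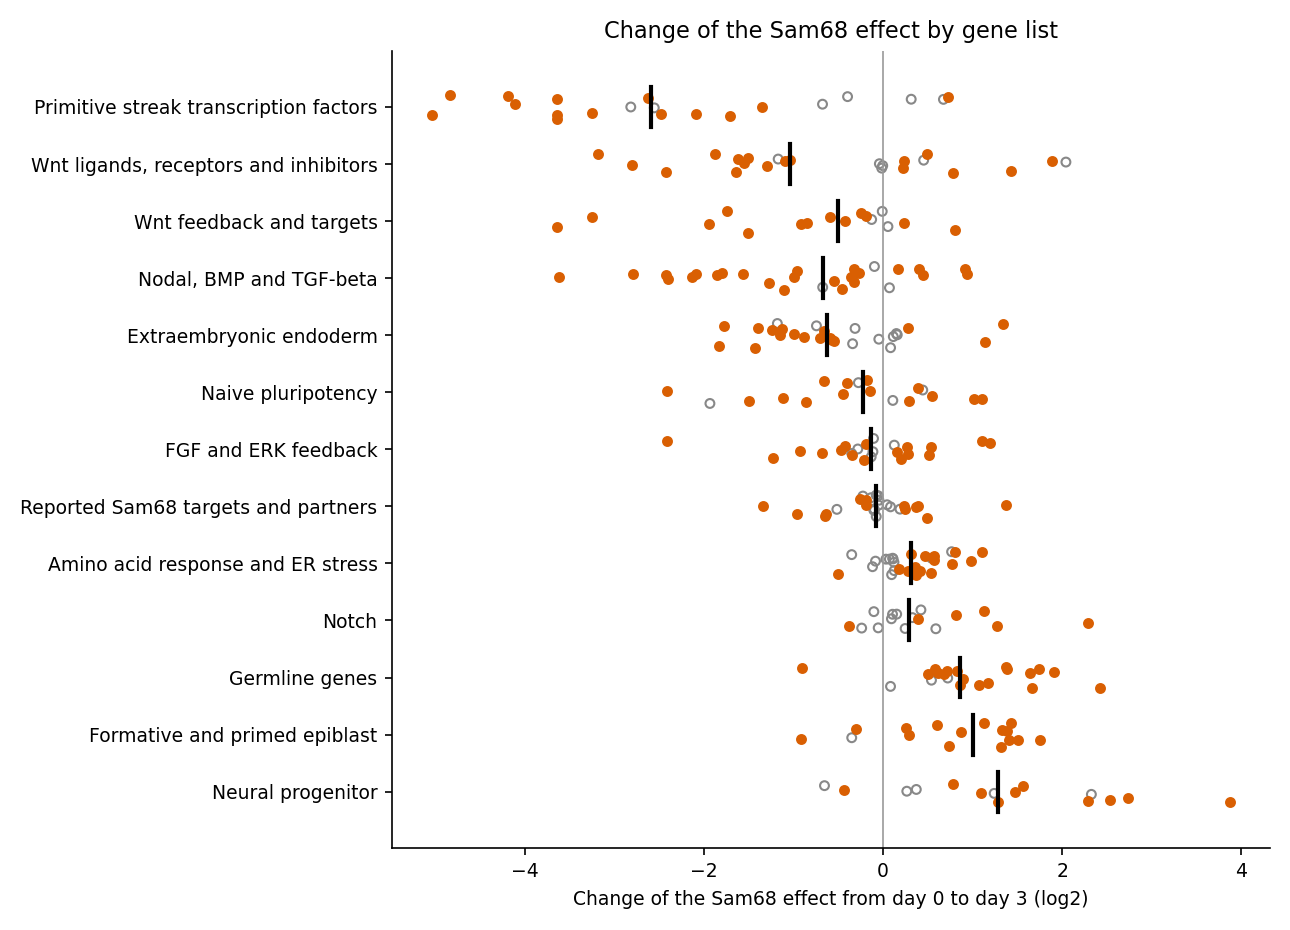
Each point is 1 gene of a list, placed by the change of its Sam68 effect from day 0 to day 3 (log2); filled points passed the test, open points did not, and the black bar is the list's median. Cer1, which had 0 counts in both lines at day 0, is not drawn. The medians run from -2.59 for the primitive streak factors to 1.28 for the neural progenitor genes.

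Primitive streak transcription factors had the lowest median of the lists drawn. Of 20 members tested, 13 were lower and 1 was higher, with a median of -2.59 against 0.02 over all genes. At day 0 only 4 of the 20 were called between the lines, 2 in each direction, while 70.7% of all genes were. Low counts limit that comparison: T and Mixl1 stood under 1 CPM at day 0, and the Mixl1 difference there had an SE of 0.72. Few calls at day 0 therefore do not show equal levels. At day 3, 17 were lower and 2 higher in the Sam68-labelled line, where 72.6% of all genes differed. In bulk samples, fewer cells of a type and less RNA per cell cannot be told apart.

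T (chr17:8434423-8442496), the Brachyury T-box factor that defines the streak and nascent mesoderm, stood at 0.703, 0.411 and 0.254 CPM at day 0 and 207, 329 and 266 CPM at day 3 in Wild Type, against 0.508, 0.494 and 0.479 CPM and 4.8, 8.37 and 13.3 CPM in the Sam68-labelled line. All 3 Sam68-labelled day 3 libraries lay more than 10 times below the lowest Wild Type library, while the day 0 groups overlapped. The change of the Sam68 effect was -5.04 ± 0.94 (adjusted p = 2.8e-04). Mixl1, a homeobox gene of the streak, was measured at 0.327, 0.443 and 0.539 CPM at day 0 and 31.6, 73.9 and 49 CPM at day 3 in Wild Type, against 0.492, 0.379 and 0.444 CPM and 2.29, 2.56 and 4.1 CPM in the Sam68-labelled line. Again the day 0 groups overlapped and the day 3 groups did not, and the change was -4.11 ± 0.84 (adjusted p = 7.0e-04). Evx1, a homeobox gene of the posterior streak, changed by -4.84 ± 0.52. Evx1os, its antisense partner, changed by -4.88 ± 0.85; the counting is not stated to use strand, so reads of these 2 overlapping genes cannot be told apart.

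**Figure D2:**
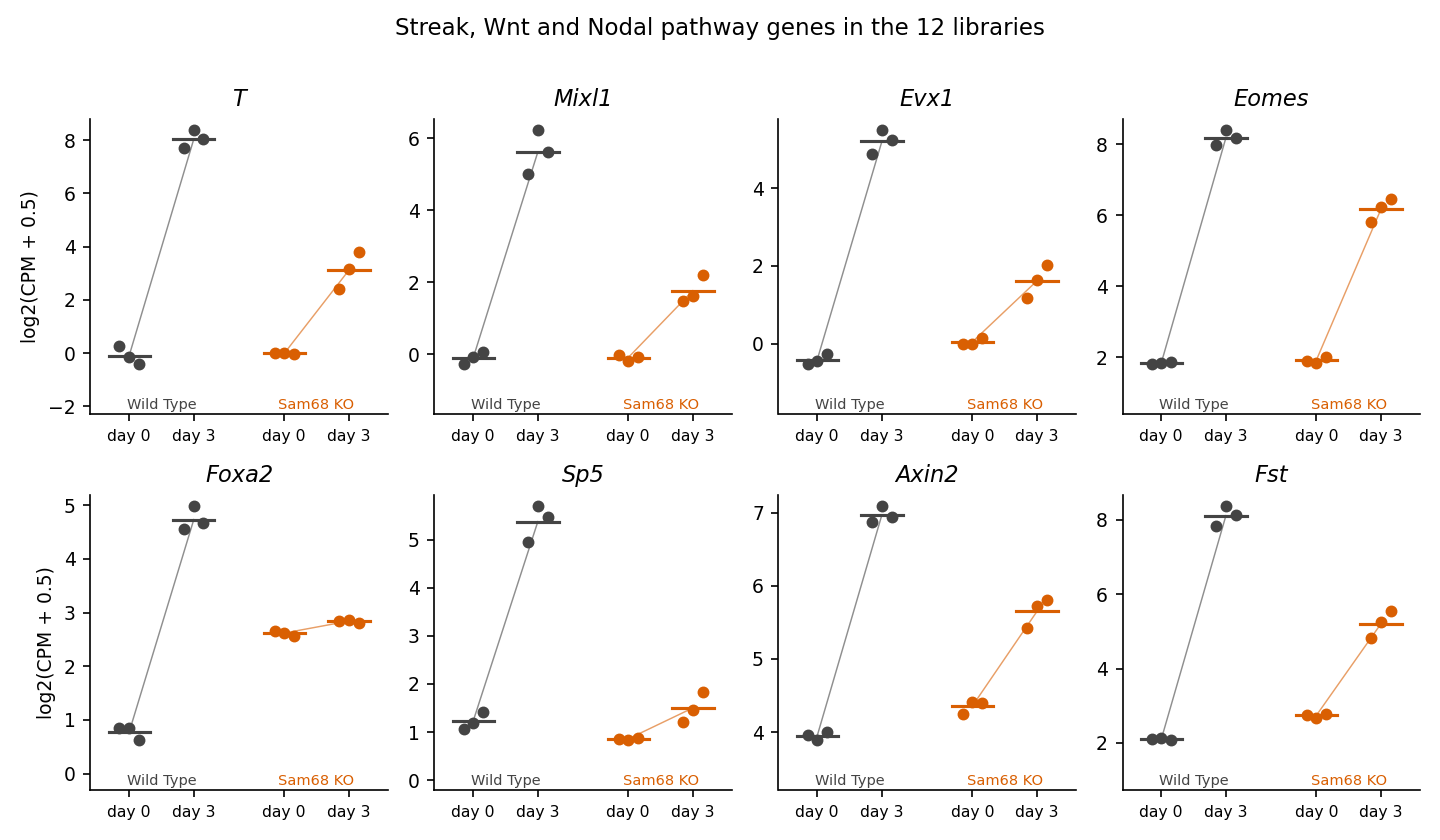
Levels of 8 genes as log2(CPM + 0.5), with 1 point per library, a bar at the mean of each group and a line joining the 2 days of a line; Wild Type is grey and the Sam68-labelled line orange. In each panel the 3 Sam68-labelled day 3 libraries lie below the 3 Wild Type day 3 libraries. At day 0 Foxa2, Axin2 and Fst start higher in the Sam68-labelled line, and Sp5 starts lower without passing the test.

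Eomes, the T-box factor of the early streak and its endoderm, rose in both lines. It was counted at 2.99, 3.07 and 3.15 CPM at day 0 and 251, 334 and 288 CPM at day 3 in Wild Type, against 3.22, 3.1 and 3.5 CPM and 56, 74.3 and 87.5 CPM in the Sam68-labelled line. The day 3 levels did not overlap, and the change was -2.09 ± 0.24 (adjusted p = 1.0e-06). Foxa2, the forkhead factor of anterior streak and endoderm, had a different course: its level was 1.31, 1.3 and 1.05 CPM at day 0 and 23, 31 and 24.8 CPM at day 3 in Wild Type, against 5.84, 5.65 and 5.44 CPM and 6.69, 6.79 and 6.51 CPM in the Sam68-labelled line. The Sam68-labelled line was the higher one at day 0 (2.21 ± 0.13) and the lower one at day 3 (-1.98 ± 0.09), without overlap on either day. That is a change of -4.19 ± 0.16 (adjusted p = 1.9e-13), and Snai1, the repressor that drives the epithelial to mesenchymal switch in the streak, crossed over in the same way with a change of -3.65 ± 0.27. Sp8 changed by -1.70 ± 0.16 and Cdx2, a homeobox gene of posterior identity and trophoblast, by -2.62 ± 0.28. Mesp2, a segmentation gene, was the member called higher (0.72 ± 0.27, adjusted p = 0.043). Its call was lost without any single Wild Type day 0 library (0.70 to 0.71), without Wild Type day 3 replicate 1 (0.55) or 2 (0.69), without replicate 2 of Sam68 KO day 0 (0.62), and without replicate 2 (0.75) or 3 (0.58) of Sam68 KO day 3.

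The Wnt pathway list was split by role. Of 23 ligands, receptors and secreted inhibitors tested, 11 were lower and 6 higher (median -1.04). Among the ligands, Wnt3, which starts the streak, went from 0.981, 0.822 and 1.14 CPM to 37.5, 45.3 and 44.1 CPM in Wild Type. In the Sam68-labelled line it went from 0.397, 0.576 and 0.376 CPM to 8.07, 9.77 and 10.5 CPM, below Wild Type in every library on both days. The change was -1.04 ± 0.28 (adjusted p = 0.0066), and the call was lost without Sam68 KO day 0 replicate 2 (-0.83). Wnt8a changed by -1.62 ± 0.35 and Wnt3a by -3.18 ± 0.46. Porcn, the enzyme that acylates Wnt proteins for secretion, changed by -1.10 ± 0.09, and the receptor gene Fzd10 by -1.55 ± 0.09. Dkk1, a secreted inhibitor that binds the Wnt co-receptor, changed by -2.43 ± 0.17. The receptors Fzd7 (0.49 ± 0.05) and Fzd2 (0.78 ± 0.09) were higher, and so was the secreted inhibitor Sfrp1 (1.43 ± 0.07). Sfrp1 fell in Wild Type from 56.8, 54.4 and 56.1 to 19.2, 17.6 and 18.3 CPM and stood at 33.8, 31.8 and 29 CPM in the Sam68-labelled line at day 3.

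Of 16 Wnt feedback and target genes tested, 11 were lower and 2 higher, with a median of -0.51. Axin2, the scaffold protein that is induced by the pathway and limits it, stood at 15.1, 14.4 and 15.5 CPM at day 0 and 117, 136 and 123 CPM at day 3 in Wild Type, against 18.6, 20.8 and 20.7 CPM and 42.3, 52.5 and 55.2 CPM in the Sam68-labelled line. The Sam68-labelled libraries were above Wild Type at day 0 and more than 2 times below Wild Type at day 3, with no overlap on either day (change -1.74 ± 0.11, adjusted p = 2.0e-10). Sp5, a zinc finger target of the pathway that is also on the streak list, changed by -3.64 ± 0.34, with 30.5, 51.5 and 44.3 CPM in Wild Type and 1.83, 2.24 and 3.06 CPM in the Sam68-labelled line at day 3. Notum, which removes the acyl group from Wnt proteins, fell from day 0 to day 3 in both lines and further in the Sam68-labelled one (change -1.94 ± 0.14), and 29.5% of its 50-base windows occur in other genes. Lef1, a DNA-binding partner of beta-catenin, changed by -0.92 ± 0.11. Nkd2 was one of the 2 called higher (0.81 ± 0.12).

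T and Sp5 are shown with the 250 bases before their RefSeq start sites (GRCm38.p6), since Wnt signals act through TCF/LEF proteins and both windows hold a TCF/LEF motif. The search covered 3 forms on both strands, which are CTTTGAT for the first form, then CTTTGAA for the next form, and CTTTGTT for the last, and the capitals mark each match.
T, chr17:8434173-8434422, plus strand: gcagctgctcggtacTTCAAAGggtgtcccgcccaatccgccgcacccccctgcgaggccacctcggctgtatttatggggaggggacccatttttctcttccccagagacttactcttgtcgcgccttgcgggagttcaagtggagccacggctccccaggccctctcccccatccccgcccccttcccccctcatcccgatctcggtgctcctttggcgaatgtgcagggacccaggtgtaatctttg
Sp5, chr2:70474673-70474922, plus strand: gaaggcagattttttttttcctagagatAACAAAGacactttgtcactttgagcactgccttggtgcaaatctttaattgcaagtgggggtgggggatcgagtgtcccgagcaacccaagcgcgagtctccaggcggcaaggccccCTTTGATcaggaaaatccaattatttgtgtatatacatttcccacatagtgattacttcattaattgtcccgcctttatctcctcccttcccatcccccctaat
T has 1 match, 235 to 229 bases before the start, and Sp5 has 2, at 222 to 216 and 104 to 98 bases. One of these motifs was present in 3 of the 17 streak genes that have a window (17.6%) and in 11.4% of 20594 genes with such a window. The motif choice was made after the values were seen, and a match is a run of letters, not a measured binding site.

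Nodal, BMP and TGF-beta genes were lower more often than higher: 19 of 28 tested were lower and 5 higher, with a median of -0.67 over the 27 with counts in every group. Nodal, the ligand itself, was not among them. Its level was 66.9, 66.7 and 70.8 CPM at day 0 and 147, 154 and 156 CPM at day 3 in Wild Type, against 44.8, 42.9 and 42.2 CPM and 95.8, 102 and 107 CPM in the Sam68-labelled line. The Sam68-labelled libraries lay below Wild Type on both days by a similar factor, and the change was 0.07 ± 0.06 (adjusted p = 0.38). Fst (follistatin), a secreted binder of activin, was counted at 3.79, 3.84 and 3.72 CPM at day 0 and 229, 330.1 and 281 CPM at day 3 in Wild Type, against 6.28, 5.91 and 6.34 CPM and 27.6, 37.6 and 46.7 CPM in the Sam68-labelled line. It was higher in the Sam68-labelled line at day 0 and several-fold lower at day 3, without overlap, and changed by -3.61 ± 0.24 (adjusted p = 5.2e-10). Lefty2, a feedback inhibitor of Nodal, changed by -1.80 ± 0.09, while its neighbour Lefty1 changed by -0.46 ± 0.12 with overlapping levels on both days, a call lost with all 27 libraries in the fit (-0.41).

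Among the BMP genes, Id1, a direct target and inhibitor of basic helix-loop-helix factors, was measured at 58.1, 56.2 and 62.9 CPM at day 0 and 16.1, 22.1 and 21.7 CPM at day 3 in Wild Type, against 77.1, 83.2 and 82.7 CPM and 5.83, 6.01 and 6.95 CPM in the Sam68-labelled line. It was above Wild Type in every Sam68-labelled library at day 0 and below it in every one at day 3, a change of -2.13 ± 0.12 (adjusted p = 5.8e-11). Id3 changed by -1.28 ± 0.11, the ligand Bmp2 by -2.80 ± 0.20 and the ligand Tgfb1 by -2.09 ± 0.13. Gdf3, a Nodal-related ligand of pluripotent cells, was higher (0.91 ± 0.06). It was lower than Wild Type at day 0 (-0.80) and close to it at day 3 (0.12).

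Of 23 FGF and ERK feedback genes tested, 9 were lower and 8 higher, with a median of -0.13. Fgf4, the ligand that pushes stem cells out of naive pluripotency, was higher at day 3 in the Sam68-labelled line (44.3, 37.3 and 34.2 CPM) than in Wild Type (23.3, 18.1 and 18.9 CPM) and changed by 1.11 ± 0.11. The receptor gene Fgfr2 changed by 1.20 ± 0.08 and the ligand Fgf10 by -2.42 ± 0.20.

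Neural progenitor genes moved the other way: 9 of 15 tested were higher and 1 lower, with a median of 1.28. Without Wild Type day 0 replicate 1, 6 were called higher. Markers of neurons and neural progenitors, 6 genes, were also summed. In Wild Type they stood at 227 to 235 CPM at day 0 and 201 to 210 CPM at day 3. In the Sam68-labelled line they stood at 99.5 to 103 CPM and 195 to 205 CPM. Without Nes, the most abundant of them, the day 3 sums were 64.6 to 68.6 CPM and 65.1 to 73.4 CPM. On both measures the lines overlapped at day 3. Sox1 (chr8:12395295-12400126), the earliest marker of neural commitment, stood at 18, 17.1 and 18.3 CPM at day 0 and 1.25, 0.828 and 0.792 CPM at day 3 in Wild Type, against 8.11, 8.56 and 8.51 CPM and 7.85, 6.55 and 5.37 CPM in the Sam68-labelled line. Wild Type lost most of its Sox1 by day 3, and the Sam68-labelled line, which began below Wild Type, kept most of its own. The groups did not overlap on either day, and the change was 3.87 ± 0.17 (adjusted p = 1.9e-12). Pax6, a paired box factor of neural progenitors, was counted at 12.5, 12.7 and 11.7 CPM at day 0 and 2.00, 1.82 and 1.92 CPM at day 3 in Wild Type, against 2.89, 3.01 and 2.92 CPM and 3.38, 2.83 and 2.92 CPM in the Sam68-labelled line. It fell in Wild Type and did not pass the test between days in the Sam68-labelled line, so that the line with less at day 0 had more at day 3 (change 2.73 ± 0.13, adjusted p = 2.6e-12). Msi1, an RNA-binding protein of neural stem cells, changed by 0.78 ± 0.10, and Sox2, of the core pluripotency list but also a neural progenitor factor, by 0.75 ± 0.07. Nes (nestin), an intermediate filament gene, was the member called lower (-0.44 ± 0.07), with overlapping levels at day 3.

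Of 17 neuronal genes tested, 5 were higher and 5 lower (median 0.04). Tubb3, a neuronal tubulin, changed by 1.35 ± 0.08 and Elavl3, a neuronal RNA-binding protein, by 1.31 ± 0.15. Stmn2, a microtubule regulator, had the smallest p of the genes called higher: it changed by 2.91 ± 0.07 (adjusted p = 1.3e-16). It was counted at 108, 119 and 115 CPM at day 0 and 37.2, 37.7 and 39.5 CPM at day 3 in Wild Type, against 4.73, 5.04 and 5.01 CPM and 12.4, 12.3 and 12.4 CPM in the Sam68-labelled line. Here the Sam68-labelled line remained below Wild Type on both days, and the gap narrowed. Gad1, which makes the transmitter GABA, was lower (-4.55 ± 0.24), and so was the neurofilament gene Nefl (-1.58 ± 0.12), which shares 31.8% of its 50-base windows with other genes.

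**Figure D3:**
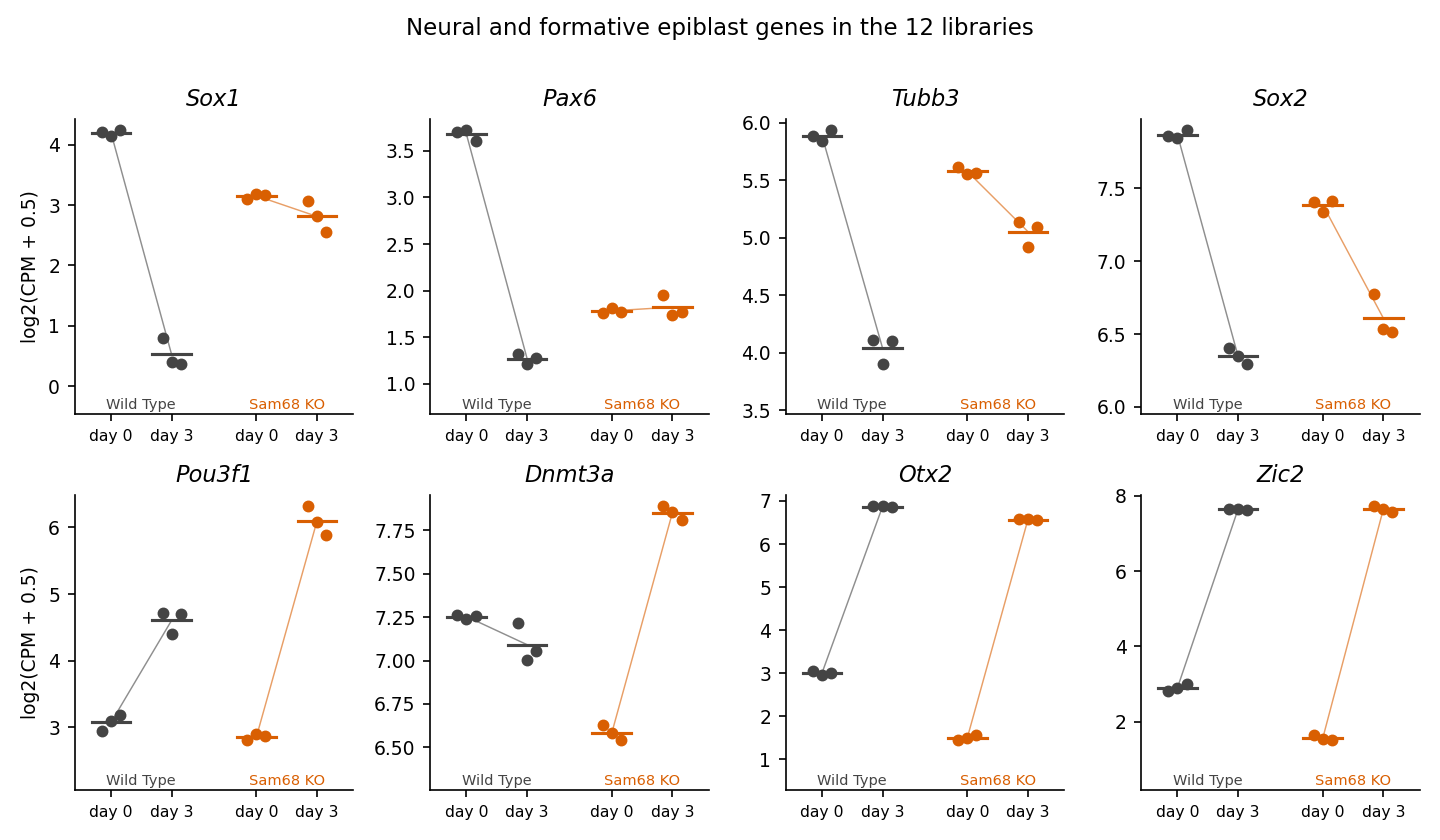
Levels of 8 neural and formative epiblast genes as log2(CPM + 0.5), with 1 point per library, a bar at each group's mean and a line joining the 2 days; Wild Type is grey and the Sam68-labelled line orange. All 8 panels show a Sam68-labelled line that starts below Wild Type on average at day 0, and in all but Otx2 and Zic2 every Sam68-labelled library is above every Wild Type library at day 3.

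Formative and primed epiblast genes were higher for 13 of 17 tested and lower for 2, with a median of 1.00 over the 16 with counts in every group. At day 3, 11 were higher and 5 lower in the Sam68-labelled line (36.3% of all genes in each direction). Fgf5, a marker of the primed state, did not end higher there. It averaged 0.22 CPM at day 0 and 104 CPM at day 3 in Wild Type, against 0.205 and 75.5 CPM. Pou3f1 (Oct6), a POU factor of the formative epiblast and early neural ectoderm, was measured at 7.19, 8.06 and 8.56 CPM at day 0 and 25.8, 20.6 and 25.4 CPM at day 3 in Wild Type, against 6.52, 6.93 and 6.79 CPM and 79.2, 66.9 and 58.7 CPM in the Sam68-labelled line. The Sam68-labelled line reached more than 2 times the Wild Type level at day 3, without overlap (change 1.75 ± 0.15, adjusted p = 1.2e-08). Dnmt3a, a de novo DNA methyltransferase, stood at 153, 150.4 and 153 CPM at day 0 and 148, 128 and 132 CPM at day 3 in Wild Type, against 98.6, 95.2 and 92.8 CPM and 236, 231 and 224 CPM in the Sam68-labelled line. It was below Wild Type in every library at day 0 and above it in every library at day 3, a change of 1.43 ± 0.06 (adjusted p = 1.5e-12). Otx2 (1.38 ± 0.07), Zic2 (1.51 ± 0.09) and Sall2 (1.32 ± 0.09), transcription factors of the formative state, rose from lower day 0 levels in the Sam68-labelled line. By day 3 the Zic2 groups overlapped, while Otx2 remained lower and Sall2 was higher than Wild Type. Sox4 changed by 1.41 ± 0.07, but 54.1% of its 50-base windows occur in other genes, so its counts are less certain. Lef1, already given, was one of the 2 called lower.

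Naive pluripotency genes fell in both lines, 17 of 18 in Wild Type and all 18 in the Sam68-labelled line, against 35.6% and 36.4% of all genes. In either direction, 70.5% of all genes differed between the days in Wild Type and 72.2% in the Sam68-labelled line. The change of the Sam68 effect was negative for 9 and positive for 5 (median -0.23). Tfcp2l1, a transcription factor of the naive state, was counted at 414, 412 and 411 CPM at day 0 and 27.2, 31.5 and 22.9 CPM at day 3 in Wild Type, against 458, 448 and 455 CPM and 9.41, 11.3 and 11.1 CPM in the Sam68-labelled line. The Sam68-labelled day 3 libraries lay below all Wild Type day 3 libraries, and the change was -1.50 ± 0.11 (adjusted p = 1.1e-09). Esrrb, a nuclear receptor of the same network, changed by -1.11 ± 0.08. Prdm14, which keeps de novo methylation low in naive cells, changed by -2.41 ± 0.28; the 3 Sam68-labelled day 3 libraries hold 14 Prdm14 counts together. Dppa2 (1.01 ± 0.07) and its neighbour Dppa4 (0.55 ± 0.05), chromatin proteins of early embryos, were higher, and share 29.1% and 31.3% of their windows with other genes.

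**Figure D4:**
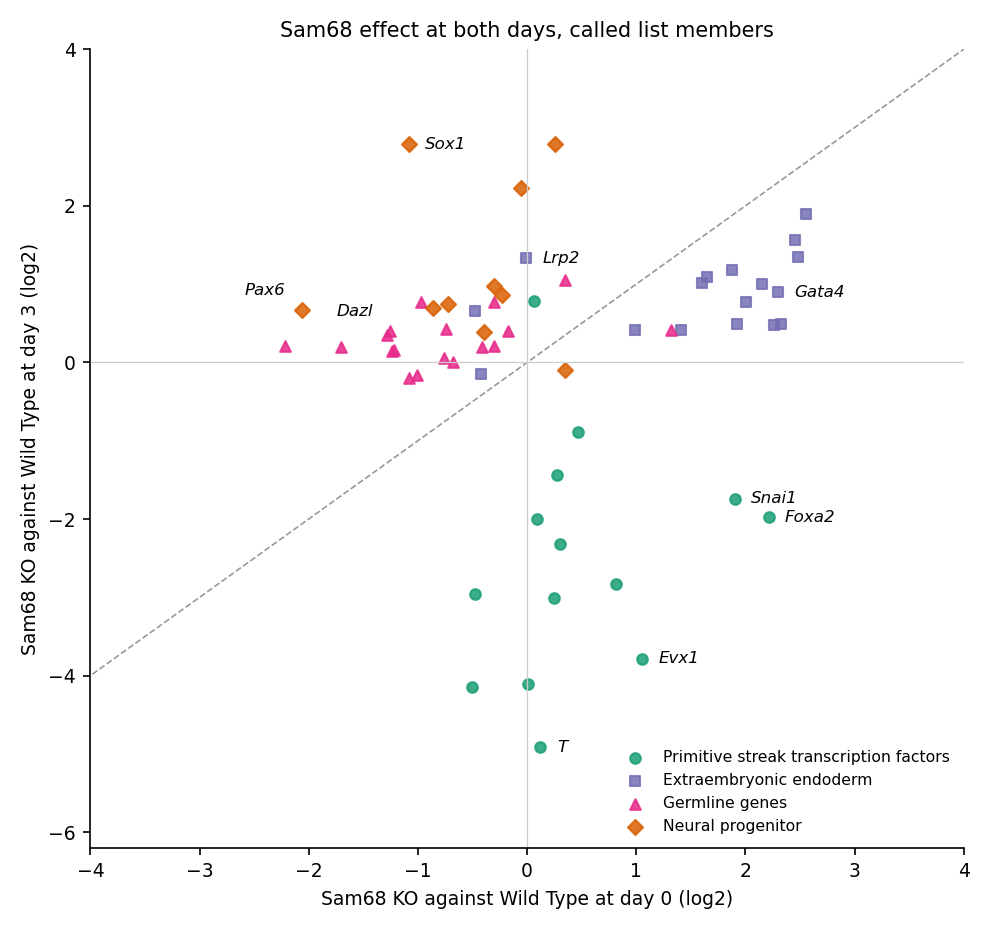
Members of 4 lists that were called in the interaction, placed by the Sam68 effect at day 0 (horizontal) and day 3 (vertical), both log2; on the dashed line the 2 effects are equal, and the vertical distance from it is the change. Of the 14 streak factors, 13 lie below the line and Mesp2 lies above it. Foxa2 and Snai1 lie to the right at day 0 (2.21 and 1.90). The other 12 were not called between the lines at day 0, where low counts limit the test for some. Of the 17 extraembryonic endoderm genes, 14 lie below the line and 3, with Lrp2 among them, above it, and of the 18 germline genes 17 lie above it and 1 below.

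Extraembryonic endoderm genes were mostly higher in the Sam68-labelled line, with a median difference of 1.62 at day 0 and 0.71 at day 3. Of 26 tested, 18 were higher in the Sam68-labelled line at day 0 (33.6% of all genes were) and 20 at day 3 (36.3% of all genes). In the interaction 14 were lower and 3 higher (median -0.63), and each of the 14 was higher in the Sam68-labelled line on both days and by less at day 3. Gata4, a zinc finger factor of primitive endoderm, was measured at 14.5, 14.3 and 14.2 CPM at day 0 and 22.8, 24.8 and 25.1 CPM at day 3 in Wild Type, against 69, 73.1 and 68.9 CPM and 47, 45.9 and 42.6 CPM in the Sam68-labelled line. It rose in Wild Type and fell in the Sam68-labelled line, which still held more of it at day 3, and the change was -1.40 ± 0.07 (adjusted p = 4.4e-12). Gata6 changed by -1.24 ± 0.15, Sox17 by -1.78 ± 0.15 and the receptor gene Pdgfra by -1.83 ± 0.13. Lamb1, a laminin chain that this tissue secretes into its basement membrane, changed by -0.99 ± 0.06, and Srgn, a proteoglycan, by -1.43 ± 0.09.

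Lrp2 (megalin), an endocytic receptor of visceral endoderm and of neuroepithelium, departed from that pattern. It stood at 300.0, 299 and 281 CPM at day 0 and 511, 472 and 458 CPM at day 3 in Wild Type, against 290.2, 295 and 291 CPM and 1253, 1247 and 1126 CPM in the Sam68-labelled line. The lines overlapped at day 0, and at day 3 each Sam68-labelled library was at more than 2 times each Wild Type library (change 1.34 ± 0.06, adjusted p = 4.8e-12). Spink1 was also higher (1.14 ± 0.12). The summed level of 10 extraembryonic endoderm markers was 83.4 to 89.0 CPM in Wild Type day 0, 271 to 296 CPM in Wild Type day 3, 434 to 449.9 CPM in Sam68-labelled day 0 and 857 to 963 CPM in Sam68-labelled day 3. Cubn, the endocytic receptor cubilin, was the most abundant of them, at 35.6 to 41.0, 189 to 209, 219 to 225 and 691 to 770.5 CPM in the same order. Without it, a sum added after the data were seen, the other 9 stood at 47.8 to 50.6 CPM and 74.6 to 86.5 CPM in Wild Type, and fell from 216 to 225 CPM at day 0 to 167 to 193 CPM at day 3 in the Sam68-labelled line. Each of the 10 had counts in every group, 6 were lower in the interaction, and their part in the other results was not tested. The 8 fibroblast or feeder markers summed to 4.50 to 5.61 CPM over both day 0 groups, 8.97 to 10.5 CPM in Wild Type day 3 and 11.1 to 11.5 CPM in Sam68-labelled day 3. The 8 trophoblast markers, which include Eomes and Cdx2, summed to 326 to 422 CPM in Wild Type day 3 and 107 to 134 CPM in Sam68-labelled day 3; without Eomes the other 7 summed to 74.5 to 87.8 CPM and 46.8 to 50.6 CPM. Tpbpa had 0 counts in 3 of the 4 groups and Elf5 in Sam68-labelled day 3.

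Germline genes, most of which are silenced in somatic cells by promoter methylation and fall as stem cells differentiate, were higher for 17 of 21 tested and lower for 1 (median 0.86). At day 0, 17 of the 21 were lower in the Sam68-labelled line (37.1% of all genes were); at day 3, 1 was lower and 9 were higher (36.3% of all genes in each direction). Dazl, an RNA-binding protein of germ cells, was counted at 15.7, 14.6 and 14.6 CPM at day 0 and 2.41, 2.47 and 2.64 CPM at day 3 in Wild Type, against 6.81, 5.81 and 6.1 CPM and 2.88, 3.48 and 3.56 CPM in the Sam68-labelled line. The Sam68-labelled line began more than 2 times below Wild Type and ended above it, without overlap on either day (change 1.66 ± 0.13, adjusted p = 2.9e-09). Mael, of the piRNA pathway, changed by 1.37 ± 0.11 and its day 3 levels overlapped. Mov10l1, a piRNA helicase, changed by 1.07 ± 0.09. Taf7l, a testis subunit of a general transcription factor, changed by 1.38 ± 0.21, and Stk31, a germ cell kinase with a Tudor domain, by 1.17 ± 0.12. Tuba3a, a testis tubulin, changed by 1.64 ± 0.13, with 35.3% of its windows shared with other genes.

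The promoters of Mael, Taf7l and Stk31 are shown because the E-box CACGTG, a palindrome bound by MAX family proteins, was common in this list. Capitals mark the motif in the 250 bases before each RefSeq start (GRCm38.p6), written 5′ to 3′ on the strand of the gene.
Mael, chr1:166238745-166238994, minus strand: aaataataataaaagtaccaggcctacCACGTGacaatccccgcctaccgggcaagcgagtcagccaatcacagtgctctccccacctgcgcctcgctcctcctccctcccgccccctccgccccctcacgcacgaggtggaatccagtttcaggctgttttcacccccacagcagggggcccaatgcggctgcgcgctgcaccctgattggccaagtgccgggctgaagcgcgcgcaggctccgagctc
Taf7l, chrX:134476491-134476740, minus strand: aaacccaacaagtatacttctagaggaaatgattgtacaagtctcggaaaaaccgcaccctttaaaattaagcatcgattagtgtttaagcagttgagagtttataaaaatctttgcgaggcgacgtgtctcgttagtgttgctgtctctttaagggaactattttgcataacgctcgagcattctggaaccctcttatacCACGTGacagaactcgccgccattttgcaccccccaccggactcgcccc
Stk31, chr6:49395354-49395603, plus strand: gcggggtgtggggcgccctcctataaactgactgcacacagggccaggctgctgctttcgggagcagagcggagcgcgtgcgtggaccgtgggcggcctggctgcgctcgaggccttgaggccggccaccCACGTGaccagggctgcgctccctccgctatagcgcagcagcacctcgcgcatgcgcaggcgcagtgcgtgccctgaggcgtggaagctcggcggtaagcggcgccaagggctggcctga
It was present in 11 of the 20 germline genes that have a window (55%) and in 10 of the 16 called higher (62.5%), against 6.41% of all 20594 windows. In the other lists searched it was in 1 of 17 streak, 1 of 13 neural progenitor, 1 of 13 formative and 0 of 7 Wnt target genes with a window. These letters were chosen after the values were seen and say nothing of what binds there.

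DNA methylation enzymes were higher for 8 of 17 tested and lower for 1 (median 0.11). Besides Dnmt3a, the cofactor gene Dnmt3l changed by 1.29 ± 0.08: it fell steeply in both lines and less in the Sam68-labelled one. Dnmt3b rose several-fold in both lines and changed by 0.29 ± 0.05, a call lost with all 27 libraries in the fit (0.33).

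The amino acid response and ER stress list, mostly targets of the transcription factor ATF4, had 14 of 27 tested genes higher and 1 lower (median 0.31). At day 0, 25 of the 27 were lower in the Sam68-labelled line (37.1% of all genes were). At day 3, 15 were still lower and 3 were higher (36.3% of all genes in each direction). Of the 15 called in the interaction, 3 differed between the lines on both days in opposite directions. Ddit3 (CHOP), a stress transcription factor, was at 8.29, 8.28 and 8.37 CPM at day 0 and 3.15, 3.37 and 3.6 CPM at day 3 in Wild Type, against 5.08, 5.1 and 5.37 CPM and 4.67, 4.46 and 4.39 CPM in the Sam68-labelled line. Wild Type fell by day 3 and the Sam68-labelled line stayed close to its lower starting level, with no overlap on either day (change 1.10 ± 0.10, adjusted p = 7.5e-08). Atf5 changed by 0.98 ± 0.10, Trib3, a pseudokinase of the same response, by 0.81 ± 0.08, and Aldh18a1, of proline synthesis, by 0.57 ± 0.06. Gpt2, a mitochondrial alanine transaminase outside the list, changed by 1.20 ± 0.05 and was among the genes with the smallest p.

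Lipid synthesis genes rose from day 0 to day 3 in both lines: all 24 cholesterol synthesis genes and all 12 fatty acid synthesis genes tested in Wild Type, and 23 and 12 in the Sam68-labelled line (34.9% and 35.8% of all genes rose). The change of the Sam68 effect was negative for 8 and positive for 2 of the cholesterol genes, and negative for 6 and positive for 3 of the fatty acid genes. Scd2, a desaturase that makes monounsaturated fatty acids, was counted at 127, 132 and 131 CPM at day 0 and 769.5, 763 and 701 CPM at day 3 in Wild Type, against 369, 391 and 397 CPM and 667, 695 and 684 CPM in the Sam68-labelled line. It started higher in the Sam68-labelled line (1.57) and ended below Wild Type (-0.13), a change of -1.70 ± 0.06 (adjusted p = 2.7e-14). Scd1 changed by -1.36 ± 0.07 and Srebf1, the regulator of fatty acid synthesis, by -0.63 ± 0.06; both overlapped Wild Type at day 3. Ebp, a sterol isomerase, changed by -1.12 ± 0.07, and Insig1, the sterol-responsive anchor of SREBP processing, by -0.70 ± 0.06.

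Of 16 Notch genes tested, 5 were higher and 1 lower (median 0.29). The ligands Dll1 (1.27 ± 0.13) and Jag2 (0.81 ± 0.07) and the target gene Hey1 (1.12 ± 0.17) were higher, and the target gene Hes1 was lower (-0.38 ± 0.06). Of 20 genes of the epithelial to mesenchymal switch, 12 were higher and 3 lower; beside Snai1, the splicing regulator of epithelia Esrp1 changed by 0.60 ± 0.07 and the repressor Zeb1 by 0.92 ± 0.09. Ccn1 and Ccn2, secreted matrix proteins of the immediate early list and known targets of YAP, changed by -2.24 ± 0.13 and -0.88 ± 0.06. In the hypoxia and glycolysis list 14 of 34 genes were higher, among them the glucose transporter gene Slc2a1 (0.75 ± 0.06), and 9 lower, among them Ndrg1 (-2.81 ± 0.11).

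Transcripts reported elsewhere as Sam68 targets or partners showed no common direction: 6 of 27 tested were higher and 7 lower, with a median of -0.08. Sat1, the enzyme that acetylates spermidine and spermine, was counted at 32.9, 32.3 and 32.4 CPM at day 0 and 108, 117 and 112 CPM at day 3 in Wild Type, against 32.6, 34.2 and 34.5 CPM and 44.8, 46.6 and 46.4 CPM in the Sam68-labelled line. The lines overlapped at day 0, and the Sam68-labelled line rose much less (change -1.34 ± 0.05, adjusted p = 3.3e-13). Nrxn2, a synaptic adhesion gene, changed by 1.38 ± 0.12, the chromatin remodeller Smarca2 by -0.96 ± 0.12 and the receptor kinase gene Kit by -0.65 ± 0.08. These are counts over whole genes, so splicing was not measured. Of 32 tissue-specific splicing regulators, 10 were higher and 5 lower, of 28 hnRNPs 7 were lower, and of 15 SR proteins 1 was higher and 4 lower. Rbm47, an endoderm splicing regulator, changed by -1.13 ± 0.11.

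The largest and the most certain changes outside the lists were also examined. Nt5e (CD73), a cell surface enzyme that makes adenosine, had the smallest p of the genes called lower. It stood at 4.25, 4.11 and 4.1 CPM at day 0 and 32.9, 35.8 and 35 CPM at day 3 in Wild Type, against 5.62, 5.75 and 5.16 CPM and 3.42, 3.93 and 3.88 CPM in the Sam68-labelled line. Wild Type rose by 3.06, and no Sam68-labelled day 3 library exceeded its day 0 level (change -3.61 ± 0.10, adjusted p = 1.1e-15). Chst15, a sulfotransferase, changed by -2.35 ± 0.08 and the semaphorin gene Sema6d by -3.64 ± 0.32. Among genes called higher, Banp, a nuclear DNA-binding protein, was counted at 47.3, 46.4 and 48.5 CPM at day 0 and 29.6, 31.5 and 32.5 CPM at day 3 in Wild Type, against 39.8, 35.7 and 36.8 CPM and 83.8, 86.6 and 87.6 CPM in the Sam68-labelled line. It fell by 0.60 in Wild Type and rose by 1.20 in the Sam68-labelled line (change 1.80 ± 0.06, adjusted p = 2.7e-14). Syt11, a vesicle protein, changed by 2.04 ± 0.08, the kinase gene Ttbk1 by 2.83 ± 0.18 and Pcnx2 by 3.17 ± 0.21. Each of these 3 was lower than Wild Type at day 0 and higher at day 3, without overlap. Platr15, a noncoding RNA of stem cells, changed by 3.49 ± 0.39, with a Sam68 effect of -3.37 at day 0 and overlapping levels under 1 CPM at day 3.

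The Quaking line was compared with the Sam68-labelled line in a fit of 18 libraries, in which both effect changes share the 6 Wild Type libraries. Differences and Quaking values come from that fit. Single effect changes quoted for the Sam68-labelled line, here and below, are those of the fit of 12 libraries. The effect change differed between the 2 lines for 7748 of 21323 genes tested (36.3%), 18.4% higher and 18% lower in the Sam68-labelled line. The Quaking effect itself changed for 17.8% of genes, 8.87% higher and 8.91% lower. Among the 20 streak factors, 11 were lower in the Sam68-labelled line than in the Quaking line. The difference was -5.42 ± 1.18 for T (adjusted p = 7.4e-04), whose effect change in the Quaking line was 0.36 ± 1.14. For Foxa2 it was -4.68 ± 0.26 and for Sp5 -4.63 ± 0.48. Sox1 differed by 4.35 ± 0.18 (adjusted p = 8.2e-15), with -0.50 ± 0.23 in the Quaking line, and Pcnx2 by 3.39 ± 0.21. Lef1 was lower in one line (-0.92) and higher in the other (1.58), a difference of -2.52 ± 0.16. Pax6 was higher in both lines, by 2.73 and 1.75. Of the 15 neural progenitor genes, 8 were higher and 1 lower in the Sam68-labelled line than in the Quaking line. Of the 27 amino acid response genes, 22 were higher. The extraembryonic endoderm list did not separate the lines in this way. Of its 26 genes, 7 were higher and 8 lower, with a median difference of -0.02. Its median effect change in the Quaking line was -0.47. Of the 21 germline genes, 10 were higher and 3 lower, with a median difference of 0.46. Their median effect change in the Quaking line was also positive, at 0.46.

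**Figure D5:**
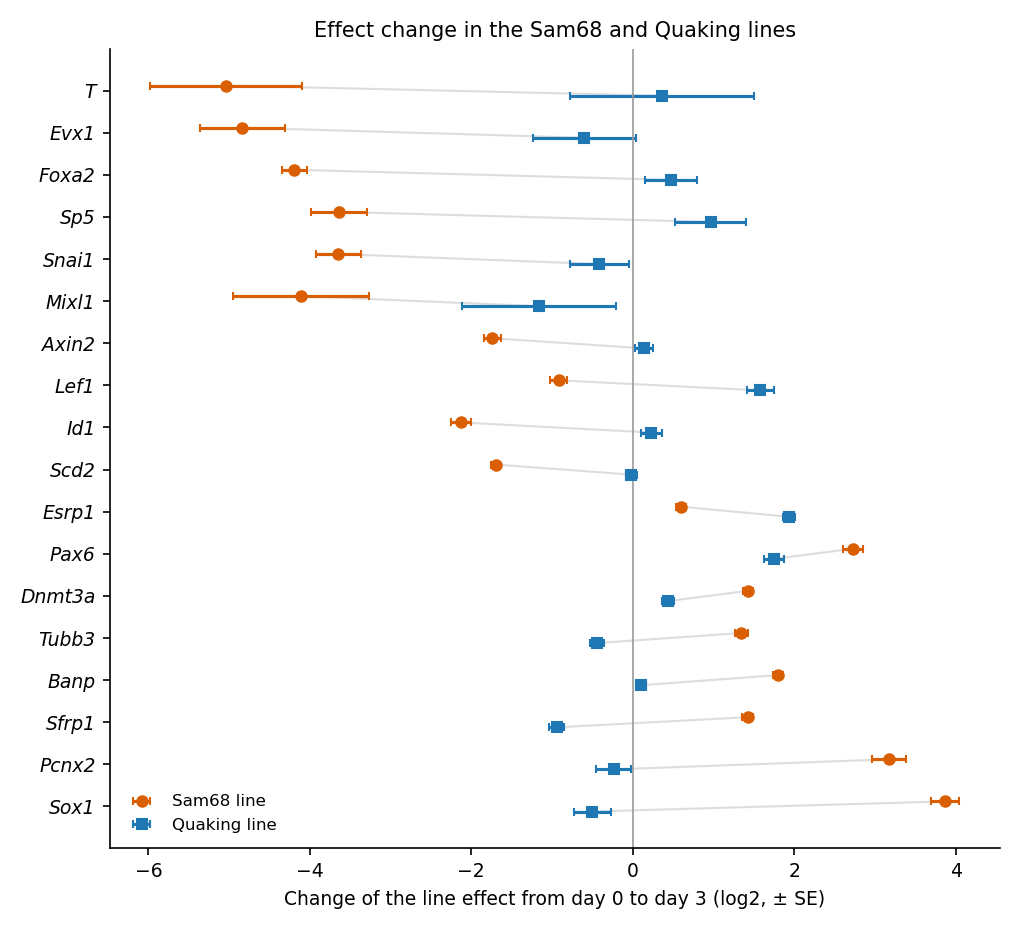
Change of the line effect from day 0 to day 3 (log2, with SE) for 18 genes in the Sam68-labelled line (orange circles) and the Quaking line (blue squares), each against the same 6 Wild Type libraries. Values of the Sam68-labelled line come from the fit of 12 libraries and those of the Quaking line from the fit of 18. The genes drawn were picked by hand from the named genes. T, Evx1, Foxa2 and Sp5 lie between -5.04 and -3.64 in the Sam68-labelled line and between -0.60 and 0.97 in the Quaking line, and Sox1 lies at 3.87 against -0.50.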

How the data were processed

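Ribosomal RNA was depleted from total RNA and libraries were made with a stranded TruSeq kit, per the labels' protocols. Reads were made with bcl2fastq 2.17.1.14 and aligned with STAR 2.5.3a to mm10 (GRCm38), per the submitters' processing notes; what counted the reads, over which annotation and with which strand setting, was not given in the sources used here. The files the authors deposited hold whole-number counts per Ensembl gene with a different total in each library. Of 51826 genes, 51633 (99.6%) were matched to GENCODE vM21.

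The 12 libraries were fitted together in edgeR 4.0.16 (R 4.3.3): filterByExpr (minimum count 10, total 15), TMM scaling, quasi-likelihood test of the interaction and Benjamini-Hochberg adjustment over all 21008 genes tested, with a threshold of 0.05. SE is the log2 change divided by the square root of F. CPM use the TMM-scaled library sizes. List medians leave out genes with 0 counts in any group. The common biological coefficient of variation was 4.37%. No pair of replicates agreed within sampling noise. The alternatives tried included DESeq2 1.42.0. Promoter windows come from RefSeq (GRCm38.p6), 1 per gene, nearest to the GENCODE start.

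The comparison, its gene lists and tests were chosen with earlier results of these data known. Named genes are the STAR family, the 10 largest changes in each direction with at least 1 CPM on average and 10 counts in each group, the 4 smallest p-values in each direction, up to 3 genes per direction with few counts in 1 group, up to 3 called genes per list and direction, up to 4 per direction with opposite effects on the 2 days, and the 4 largest differences from Quaking in each direction. The differences from Quaking were ranked only among genes also called in the interaction. Genes outside that rule were chosen after their values were seen: Wnt3, Wnt3a, Wnt8a, Nodal, Lefty1, Id3, Bmp2, Pou3f1, Zic2, Sall2, Dnmt3b, Gata6, Mov10l1, Taf7l, Stk31, Trib3 and, for its level alone, Cubn. Fgf5 is likewise given for its level alone.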

Additional observations from a re-analysis of the deposited data

Results flagged for a closer look

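The change of the line effect from day 0 to day 3 differed between the Sam68-labelled and the Quaking line for 7748 genes in edgeR's test of the difference itself. Both changes use the same 6 Wild Type libraries, which cancel in the difference. The fixed rule took only genes that were also called in the Sam68 effect change. Genes that moved in the Quaking line alone could not enter. Among the genes it took, the largest differences were 4.35 ± 0.18 for Sox1, 3.72 ± 0.15 for Serpinb6c, 3.43 ± 0.28 for Hhip and 3.39 ± 0.21 for Pcnx2. In the other direction they were -5.42 ± 1.18 for T, -4.68 ± 0.26 for Foxa2, -4.67 ± 0.41 for Trim67 and -4.63 ± 0.48 for Sp5 (log2 ± SE). Serpinb6c, a serpin, and Hhip, which binds Hedgehog ligands, were higher in the Sam68-labelled line (1.23 and 2.12) and lower in the Quaking line (-2.51 and -1.32). Trim67, a ubiquitin ligase gene, was higher in the Quaking line by 3.77. Its change in the Sam68-labelled line was -0.88, a call lost without Sam68 KO day 0 replicate 1 (-0.65). With 3 libraries per group, no test for a library that stands apart was made.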

How the results depend on the processing

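The 7111 genes called became 5280 to 7687 over 22 alternatives, and 6248 to 7671 when each of the 12 libraries was left out in turn. With all 27 libraries in the fit, 5288 genes were called, 3295 higher and 1993 lower. Protein-coding genes with little shared sequence gave 5280, 2614 higher and 2666 lower; fewer genes were tested. The same subset gave 7373 genes for the lines at day 0 and 7745 at day 3, 9345 for the Wild Type days and 9422 for the Sam68-labelled days, in place of 14852, 15245, 14802 and 15167. None of the 117 single genes followed changed direction in the alternatives in which it was tested, and with all 27 libraries the calls of Dnmt3b, Lefty1, Mesp2, Qk, Sf1 and Trim67 were lost; the cause was not tested. Over the alternatives the streak list had 11 to 14 genes lower (13 as reported), the neural list 6 to 9 higher, the germline list 11 to 17 higher and the formative list 8 to 13 higher; the lowest germline and formative counts came from the subset, which tests fewer members. The mitochondrial genome list, 6 higher, ranged from 0 to 10, and the structured RNA list, 7 lower, from 0 to 11; both stood at 0 where their genes were left out. Of 46 counts by list, 13 moved by more than 1.5 times with all 27 libraries, 14 in the subset, 5 without a filter on low counts and 3 in DESeq2's Wald test.

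Replicate numbers are not stated to pair the samples, and the lines differed here. Deviations of same-numbered Wild Type libraries at days 0 and 3 correlated at 0.32, 0.04 and 0.35. Wild Type libraries with different numbers correlated between -0.35 and 0.09. In the Sam68-labelled line, same-numbered libraries correlated at -0.13, 0.0015 and -0.04, and different-numbered ones between -0.10 and 0.13. A replicate block by number gave 7064 genes (3746 higher, 3318 lower), a block within each line 7687, and a block of the difference from Quaking 7884 in place of 7748. DESeq2's Wald test, its size factors in edgeR and the fit without a filter moved no count over all genes by more than 1.5 times. Low counts at day 0 limit some streak genes: T and Mixl1 stood under 1 CPM there and had SE of 0.94 and 0.84.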

Other observations

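Chromosome 6 had the highest share of genes called higher of all chromosomes. Of its 1067 genes tested, 283 (26.5%) were higher and 96 (9%) lower, with a median change of 0.13 (log2), and the median Sam68 effect on this chromosome was -0.17 at day 0 and -0.06 at day 3. Chromosome 8 had 265 of 1112 genes higher (23.8%) and 124 lower (11.2%), with a median of 0.07. On chromosome 11 the counts were 244 higher and 311 lower of 1539.

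Of the 15 transcripts of the mitochondrial genome tested, 6 were higher. Of 17 structured noncoding RNAs, 7 were lower, a count that ran from 0 to 11 over the alternatives; it was 2 with all 27 libraries in the fit and 11 without a filter on low counts. The libraries of both lines differed in their content of structured RNA at both days, as given in the report, and its part in these counts was not tested.

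Astn1 (3.28 ± 0.42), Pcdh18 and Itgb8 (2.17 ± 0.41) were higher with fewer than 10 counts in 1 group. Astn1 stood at 0.163, 0.237 and 0.269 CPM in Wild Type day 0 and 0.0317, 0.0494 and 0.0513 CPM in the Sam68-labelled line. At day 3 it stood at 5.83, 5.48 and 5.33 CPM in Wild Type and 9.81, 11.4 and 11.5 CPM in the Sam68-labelled line.

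In the promoter windows, the octamer ATGCAAAT was present in 3 of 17 streak genes (Cdx2, Cdx4 and Evx1, 17.6%) and in 1.52% of all windows. Of the 11 streak genes called lower that have a window, 2 held it (Cdx2 and Evx1). In all, 5 motifs were searched in 5 lists, and none of these counts was tested. A match is a run of letters, not a measured binding site. GTCTAGAC was in no window of the 5 lists and in 0.16% of all windows. TGTGGATT was in 1 neural progenitor window (Six3) and in 0.724% of all windows.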
